A study of Arabidopsis thaliana with 12 samples.

Results

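Plant cell walls are built and rebuilt by enzymes of opposite action on sugar chains. Glycosyltransferases move a sugar from an activated donor onto a growing polysaccharide or glycoprotein, mostly in the Golgi, while endoglucanases cut glucan chains from within, in or next to the wall. In roots both classes are known from work on cell elongation and wall assembly. The 4 genes described here are 3 annotated glycosyltransferases and 1 endoglucanase. AT4G19900 is a glycosyltransferase whose acceptor is not described here. AT3G57630 belongs to the exostosin-like transferases and is known as ExAD, which adds an arabinose to the side chains of extensins, the structural glycoproteins of the wall. AT2G26100 belongs to a galactosyltransferase family. GH9B8 (AT2G32990) is a class B member of glycoside hydrolase family 9, the family of plant endoglucanases. The roles of the 3 transferases are background knowledge, since the tables used here pair their probes with a locus only.

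The members were chosen by annotation with earlier results of the difference between aap3 and wild-type roots already known, so that difference is described for them and not tested. Each gene had a single probe that GEO's platform annotation assigns to it alone: probe 371 for AT4G19900, 310 for AT3G57630, 2288 for AT2G26100 and 2035 for GH9B8. These are 4 of 692 single-gene probes among 3439 probes in all. No probe shared between several genes named any of them.

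Roots of the Arabidopsis thaliana aap3 mutant (6 samples), which lacks AAP3, were set against wild-type roots (WT, 6 samples). AAP3 belongs to the amino acid permeases, which carry amino acids into cells. Both groups were of ecotype Wassilevskija, total RNA was hybridised to an expression array, and replicates were numbered 1 to 6 in each group. The labels give no age, growth condition or allele, and do not say whether replicates were separate plants, so the spread between them may be technical. Nor do they pair the samples, and same-numbered samples are called pairs or partners here. The deposited values are linear intensities, with no scale stated, and had sample medians of 0.476 to 0.505 in aap3 and 0.490 to 0.536 in WT. None of 13 root marker genes and none of 12 leaf marker genes had a single-gene probe, AAP3 included, so neither the tissue nor the genotype label was checked by its markers. The number of samples limits the precision. Intensities of different probes have no common scale, and only changes are compared between genes. Array signal from whole roots cannot tell fewer cells of a type from less RNA per cell.

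All 3 transferases had lower signal in aap3 in every one of the 6 replicate pairs, and the endoglucanase had higher signal in every pair. The same-direction share has a high background in these data: 20.6% of all 3439 probes were lower in aap3 in all 6 pairs of deposited intensities, and 7.21% were higher in all 6. On the log2 scale after median scaling and quantile normalization, the transferase differences ran from -0.48 to -0.28 with a median of -0.34, and GH9B8 differed by 0.44. The median over all probes on that scale was 0.00, and in unscaled deposited intensities it was -0.05, against a median of -0.41 for the 3 transferases. All 4 probes lay above the floor set for dim values in all 12 samples. That floor was 0.0951 to 0.107 in deposited units, and the dimmest member value was 0.242.

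AT4G19900 had the tightest replicates of the 4. Its deposited intensity in aap3 replicates 1 to 6 was 5.02, 4.93, 5.25, 5.46, 4.95 and 5.22. In WT replicates 1 to 6 it was 6.79, 6.97, 6.54, 6.73, 7.08 and 7.43. Every aap3 sample lay below every WT sample, with 5.46 as the highest aap3 and 6.54 as the lowest WT value, and AT4G19900 was the only transferase of the 3 without overlap. Over all probes, 3.87% had aap3 wholly below WT in deposited intensities, and 2.01% had it after normalization, where AT4G19900 also did not overlap. The means were 5.14 ± 0.21 in aap3 and 6.92 ± 0.31 in WT (SD, n = 6 each). The aap3 signal was 0.698 to 0.812 times that of its WT partner, a change of -30.2% to -18.8%. The normalized log2 difference was -0.48 ± 0.05 (SE of the limma fit).

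AT3G57630, the extensin arabinosyltransferase, was a dim probe at 0.596 times the sample median in aap3 and 0.753 times in WT. It had deposited intensities of 0.326, 0.252, 0.327, 0.339, 0.242 and 0.268 in aap3 replicates 1 to 6. The WT values were 0.465, 0.395, 0.432, 0.400, 0.309 and 0.326. The groups overlapped, because WT replicates 5 and 6 fell among the aap3 values while their own aap3 partners were lower still. The means were 0.292 ± 0.043 in aap3 and 0.388 ± 0.060 in WT (SD, n = 6 each). Within pairs the aap3 signal was 0.638 to 0.849 times the WT signal, lowest in pair 2 and nearest to WT in pair 4. The normalized log2 difference was -0.34 ± 0.11 (SE without pairing) or ± 0.05 with the replicate number as a block.

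AT2G26100, of the galactosyltransferase family, behaved alike from pair to pair. Its intensities in aap3 replicates 1 to 6 were 0.425, 0.419, 0.501, 0.491, 0.392 and 0.350. In WT they were 0.589, 0.533, 0.639, 0.648, 0.490 and 0.408. The ranges overlapped between 0.408 and 0.501, where WT replicates 5 and 6 met the higher aap3 values, yet the paired ratios stayed between 0.722 and 0.857. The means were 0.430 ± 0.058 in aap3 and 0.551 ± 0.093 in WT (SD, n = 6 each). The normalized log2 difference was -0.28 ± 0.11 (SE), and its SD over the 6 pairs was 0.07, against 0.13 for AT3G57630, 0.14 for AT4G19900 and 0.20 for GH9B8.

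GH9B8, the endoglucanase, had signals of 0.393, 0.460, 0.613, 0.499, 0.646 and 0.591 in aap3 replicates 1 to 6. In WT they were 0.332, 0.420, 0.397, 0.347, 0.487 and 0.478. The groups overlapped through aap3 replicates 1 and 2, which lay within the WT range. The means were 0.534 ± 0.098 in aap3 and 0.410 ± 0.065 in WT (SD, n = 6 each). The paired ratio varied most of the 4 genes, with the aap3 signal 9.60% above WT in pair 2 and 54.4% above it in pair 3. The normalized log2 difference was 0.44 ± 0.15 (SE without pairing) or ± 0.08 with the block.

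**Figure D1:**
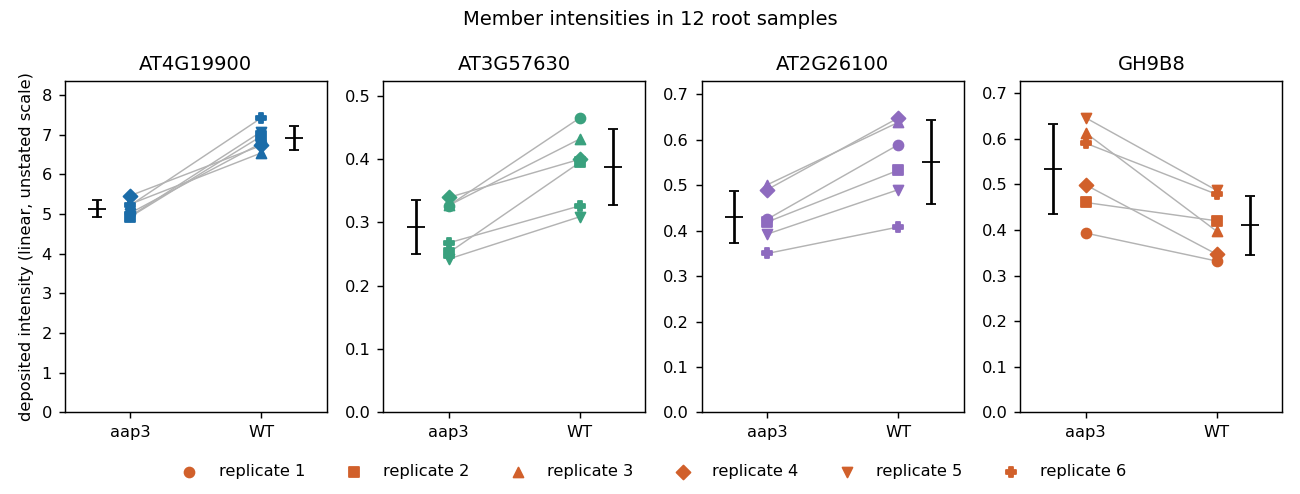
Deposited intensity (linear, unstated scale) of the 4 genes in aap3 (left) and WT (right) roots; marker shapes are replicates 1 to 6, grey lines join same-numbered samples, and black bars are means ± SD. Lines of the 3 transferases all go up towards WT and those of GH9B8 all go down, and the groups are apart for AT4G19900 alone.

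Whether the members passed the threshold depended on the use of the replicate numbers, among other settings. In limma without pairing, 1 of the 3 transferases, AT4G19900, was called lower in aap3 at an adjusted p of 0.05, against 2.50% of all probes called lower. GH9B8 was not called, while 2.50% of all probes were called higher. With the replicate number as a block, 3 of 3 transferases were called lower, against 8.52% of all probes, and GH9B8 was called higher, against 8.55%. With replicates 1 and 2, 3 and 4, and 5 and 6 averaged to 3 values per group, none of the 4 was called, in a fit that called 1 probe of 3439 and had 373 at an unadjusted p under 0.05. Since the members were chosen with this contrast known, these counts describe them and support nothing further.

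Replicate pairs 1 and 2, 3 and 4, and 5 and 6 resembled each other over the array, with correlations of their differences across probes of 0.54 to 0.65 within these couples and 0.32 to 0.35 between them. The genes differed in which couple showed the largest change. For AT4G19900 the mean normalized log2 difference was -0.47 in pairs 1 and 2, -0.34 in pairs 3 and 4 and -0.64 in pairs 5 and 6. AT3G57630 showed -0.49, -0.26 and -0.28 in the same order, and AT2G26100 showed -0.34, -0.29 and -0.22. GH9B8 showed 0.24, 0.66 and 0.41. The couple in which AT4G19900 changed least, pairs 3 and 4, was that in which GH9B8 changed most, and AT3G57630 and AT2G26100 had their largest change in pairs 1 and 2. For AT4G19900 the pairs differed more after normalization than before it, with SDs of 0.14 and 0.10. Its log2 differences in deposited intensities were -0.43, -0.50, -0.32, -0.30, -0.52 and -0.51 in pairs 1 to 6.

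**Figure D2:**
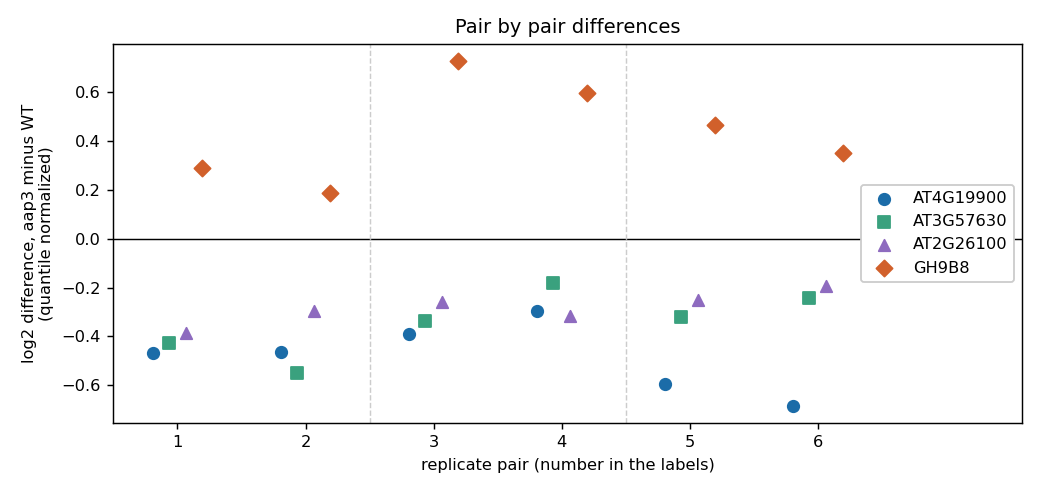
Normalized log2 difference, aap3 minus WT, of each gene in replicate pairs 1 to 6, with dashed lines between the couples of pairs that resembled each other over the array. The transferases lie between -0.68 and -0.18 and GH9B8 between 0.19 and 0.73.

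Within WT alone, replicates 5 and 6 stood apart from replicates 1 to 4 in all 4 genes, an observation made after the values were seen. Their signals lay above those of the other WT samples for AT4G19900 and GH9B8, and below them for AT3G57630 and AT2G26100. Such a split was common on the array, at 42.0% of all probes. Among aap3 samples it held in 1 of the 4 genes, AT2G26100, where 34.1% of all probes had it. The 3 transferases therefore did not vary together between replicates, although all 3 were lower in aap3. Over the 12 samples, deviations from the group means of AT3G57630 and AT2G26100 had r = 0.65, while those of AT4G19900 had r = -0.30 with AT3G57630 and r = -0.65 with AT2G26100. GH9B8 had r = -0.67 with AT3G57630, r = -0.51 with AT2G26100 and r = 0.47 with AT4G19900. These are descriptions over samples that share the replicate structure above.

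The ratio of a transferase to the endoglucanase within a sample does not depend on any linear scaling between samples. In deposited intensities that ratio was lower in aap3 than in its WT partner in all 6 pairs for each transferase. This direction follows from those of the single genes given above and is no separate result, so the ratios only describe the size of the shift. For AT4G19900 over GH9B8 the aap3 ratio was 0.520 to 0.646 times the WT ratio, with a mean log2 difference of -0.80 ± 0.13 (SD, n = 6 pairs). For AT3G57630 over GH9B8 it was 0.490 to 0.665 times the WT ratio (-0.78 ± 0.14), and for AT2G26100 over GH9B8 0.508 to 0.717 times (-0.73 ± 0.20). The 3 ratios share GH9B8 as their denominator, and their mean shifts lay within 1 SD of each other.

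Averaged over the 3 transferases, the log2 ratio to GH9B8 differed by -0.77 ± 0.13 in deposited intensities (SD, n = 6 pairs). It was -0.72, -0.63, -0.98, -0.84, -0.81 and -0.64 in pairs 1 to 6. Pair 3, where GH9B8 exceeded its WT partner most, gave the largest shift, and pairs 2 and 6 the smallest. After normalization the mean was -0.81 ± 0.15. A ratio of this kind shows unequal change and does not say which side moved. Without regard to pairs, AT4G19900 over GH9B8 was lower in every aap3 sample than in any WT sample, while the other 2 ratios overlapped between the groups.

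**Figure D3:**
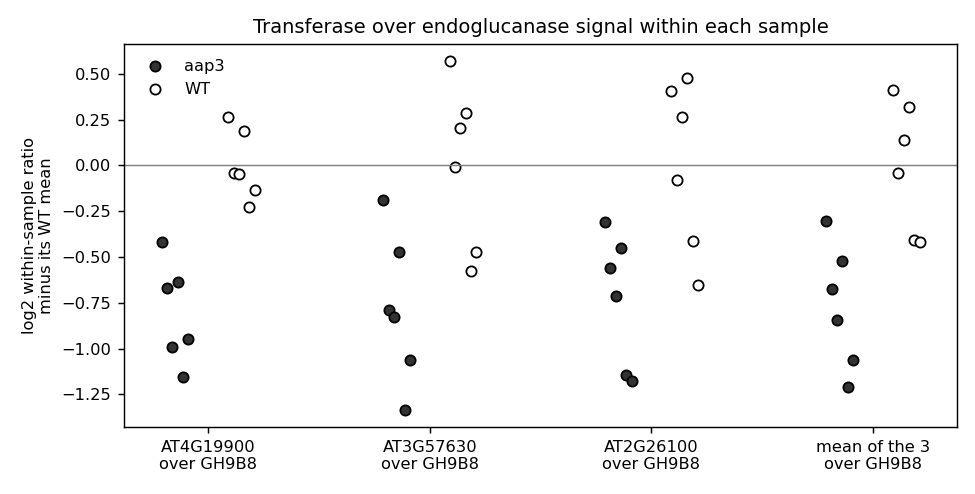
Log2 of the within-sample ratio of each transferase, and of the mean of the 3, to GH9B8 in aap3 (filled) and WT (open) samples, set to 0 at the WT mean. Samples run from replicate 1 at left to 6 at right within a group; AT4G19900 over GH9B8 reaches -0.42 at most in aap3 and -0.23 at least in WT, and the other ratios overlap.

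Lists of transferases, wall hydrolases and wall proteins, matched on the symbols and synonyms of the 692 single-gene probes, gave 2, 3 and 0 other genes. Genes known by locus alone, the 3 transferases described here among them, cannot be found this way, and neither the 870 probes with several genes nor the 1877 without a gene were searched. Neither of the 2 transferases and none of the 3 hydrolases was called in limma, without pairing or with the block. All 3 hydrolases were endoglucanases of the same class as GH9B8, with differences below 0 where that of GH9B8 was above. The median log2 difference of these 3 was -0.15 and that of the 2 transferases -0.06, against 0.00 over all probes.

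GH9B11 (AT2G44560) had 0.543 ± 0.062 in aap3 and 0.638 ± 0.084 in WT (SD, n = 6 each), with a log2 difference of -0.15 ± 0.09 (limma adjusted p = 0.49). GH9B12 (AT2G44570), its neighbour by locus number, had 0.298 ± 0.042 in aap3 and 0.359 ± 0.050 in WT, with a difference of -0.21 ± 0.11 (limma adjusted p = 0.377). GH9B16 (AT4G38990) had 0.480 ± 0.048 in aap3 and 0.541 ± 0.085 in WT, with a difference of -0.09 ± 0.09 (limma adjusted p = 0.74). The aap3 sample was the lower of its pair in 5, 4 and 5 of 6 pairs for GH9B11, GH9B12 and GH9B16, while GH9B8 was the higher in 6 of 6. Whether GH9B8 differs from its relatives in this was not tested, and probes of related sequence may share signal.

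CSLA01 (AT4G16590), of the cellulose synthase-like A family that makes mannans, had 0.234 ± 0.063 in aap3 and 0.302 ± 0.041 in WT (SD, n = 6 each). It was lower in aap3 in 6 of 6 pairs, with a log2 difference of -0.36 ± 0.19 (limma adjusted p = 0.366, and 0.102 with the replicate block). That difference was of the size of the transferases' but its SE was larger. UGT74D1 (AT2G31750), a glucosyltransferase acting on auxin-related molecules, had 0.188 ± 0.044 in aap3 and 0.168 ± 0.044 in WT. Its difference was 0.23 ± 0.17 (limma adjusted p = 0.569), higher in 4 of 6 pairs.

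**Figure D4:**
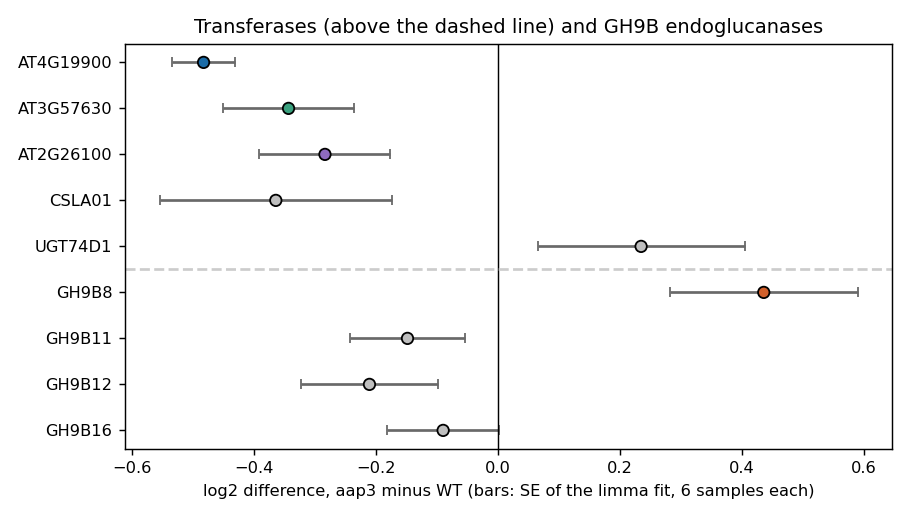
Normalized log2 difference, aap3 minus WT, with the SE of the limma fit without pairing (6 samples per group), for transferases (above the dashed line) and class B endoglucanases (below it); coloured points are the 4 genes described here and grey points the 5 other measured genes of the lists. GH9B8 lies at 0.44 and the 3 other endoglucanases between -0.21 and -0.09.

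Probe number is the sole position given for these arrays, and the 20 probes closest by number were set beside each member. Around AT4G19900, 10 of 20 had lower and 10 higher signal in aap3, with a median log2 difference of 0.04. For AT3G57630 9 of 20 were lower, with a median of 0.00. The 11 others include probes 297 and 303, whose difference was 0.00 within rounding. Around AT2G26100, 14 of 20 were lower with a median of -0.13, the direction of the gene itself. Around GH9B8, 16 of 20 were lower with a median of -0.14, opposite to the gene. With the median deviation of these probes subtracted in each sample, the differences were -0.50 ± 0.12 for AT4G19900, -0.35 ± 0.09 for AT3G57630 and 0.56 ± 0.15 for GH9B8 (SE). That of AT2G26100 was -0.15 ± 0.07, smaller by more than 1.5 times. The part of array position in the differences was not tested beyond these values. The comparison with neighbours shares probes with that by list, as CSLA01 (probe 319) is a neighbour of AT3G57630 and UGT74D1 (probe 2020) of GH9B8.

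**Figure D5:**
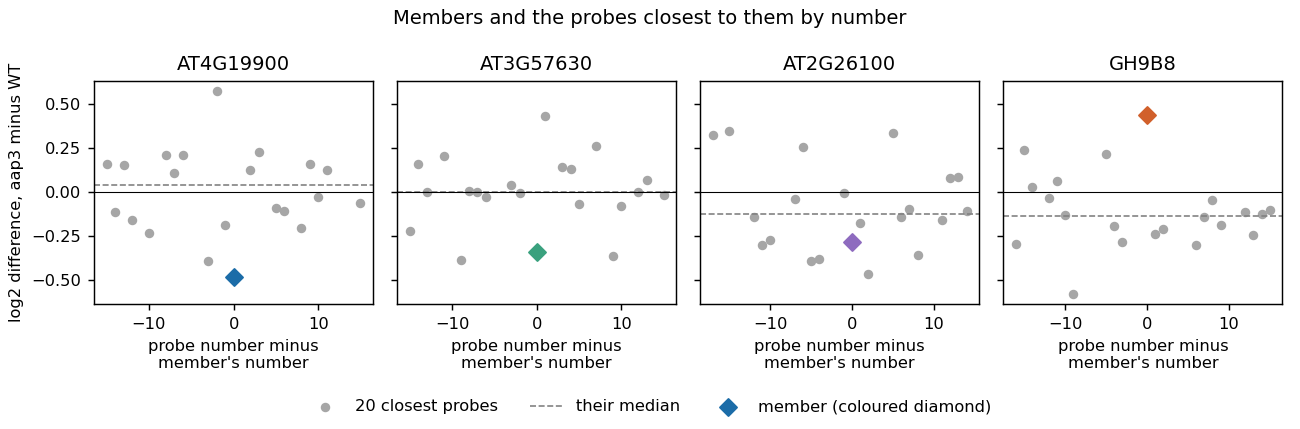
Normalized log2 difference, aap3 minus WT, of each gene (coloured diamond at 0) and of the 20 probes closest by number (grey), with their median as a dashed line. The x axis is the distance in probe numbers; GH9B8 at 0.44 lies above all 20 of its neighbours, which reach 0.23, and AT4G19900 at -0.48 lies below all 20 of its own, which reach -0.39. AT3G57630 has 2 neighbours lower than itself and AT2G26100 has 5.

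Genes with the most similar variation among replicates were sought by the correlation of deviations from the group means over 12 samples, among 561 single-gene probes above the floor. Because group means were removed, this measure does not use the difference between aap3 and WT. For GH9B8 the 3 closest were AT3G12000 (r = 0.94), CML30, a calmodulin-like protein (r = 0.93), and AT2G36560 (r = 0.92). Their log2 differences of -0.16, -0.33 and -0.03 had the sign opposite to that of GH9B8, and none was called with or without the block. For AT2G26100 they were PPDK, the pyruvate orthophosphate dikinase (r = 0.91), AT4G39690 (r = 0.90) and AT1G73120 (r = 0.88). PPDK did not follow AT2G26100 in the contrast, with 0.817 ± 0.098 in aap3 and 0.875 ± 0.136 in WT (SD, n = 6 each) and a normalized difference of 0.00. AT4G39690 had -0.20 ± 0.06 and was called with the block. AT1G73120 had 0.28 ± 0.19, opposite in sign to AT2G26100, and was not called in either fit.

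For AT3G57630 the closest were AT4G05490 (r = 0.91), AT5G10920, an argininosuccinate lyase of arginine synthesis (r = 0.85), and AT1G13990 (r = 0.84). Their differences of 0.15, -0.03 and 0.06 were all smaller in size than that of AT3G57630. AT4G19900 had the weakest matches, AT1G73740, AT3G04210 and AT1G07460, each at r = 0.81. All 3 differed below 0, by -0.38, -0.24 and -0.08, and AT1G73740 was called with the block. Samples in such correlations share replicate numbers and scaling, so no p is given.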

How the data were processed

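The authors deposited 1 array intensity per probe and sample, linear and on an unstated scale. For the array type, dyes, background correction and normalization, nothing is given in the sources used. From the deposited intensities, each sample was divided by its median, a floor was set at the 5th percentile of positive values (0.200 times the median), and log2 values were quantile normalized. All 3439 probes were fitted with limma 3.58.1 in R 4.3.3 (6 aap3 against 6 WT, no covariates, two-sided, Benjamini-Hochberg threshold 0.05). This fit was tested on simulated data with independent noise in each sample, which leaves out the shared deviations described next. The fits with a block were not tested in this way. Same-numbered samples deviated together from their group means (r of 0.73 to 0.75 across probes in the 6 pairs). The numbers were taken as pairs on this ground, not from a label, and a fit with the replicate block was added. The r between different-numbered samples of the groups was not computed, so these r do not show that equal numbers match best. Members, lists and settings were chosen with earlier results of these data known. Named genes are the members, the 3 most similar probes each, and keyword-list genes. The list rule asked for those called, and since none was, all 5 are named. Keywords were matched to symbols and synonyms, the tables holding no descriptions, which may miss genes. Of 692 single-gene probes, 690 matched a TAIR10.1 locus. The alternatives were other scalings, an offset, 2 filters on dim probes, fixed and random blocks, averaged couples of replicates, subtraction of nearby probes and omission of each sample. Probe and gene sequences were not used here.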

Additional observations from a re-analysis of the deposited data

How the results depend on the processing

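No member changed direction under any of 21 alternatives. The difference of AT4G19900 was -0.50 to -0.36 and was called in all 12 omissions of 1 sample and in 8 of the 9 other settings, all except averaged couples. AT3G57630 (-0.41 to -0.26) and GH9B8 (0.36 to 0.56) were called in 3 of these 9, both replicate blocks and nearby subtraction, and AT2G26100 (-0.36 to -0.15) in the 2 blocks. None of these 3 was called on omitting a sample. The difference between the transferases' mean and GH9B8 was -0.89 to -0.68, and -0.90 to -0.72 on omitting a sample. Over all probes the 172 calls (86 higher, 86 lower, 27 single-gene) became 587 with the replicate block (294, 293 and 101), 713 with a random replicate block (358, 355 and 118), 281 with deposited values unscaled (71, 210 and 47, with a median log2 difference of -0.05), and 1 with averaged couples (1, 0 and 0; 373 at an unadjusted p under 0.05), which leave 3 values per group. Nearby subtraction gave 44 single-gene calls. On omitting a sample, calls numbered 128 to 189, with 66 to 87 of them higher in aap3, 58 to 102 lower, and 20 to 32 from single-gene probes. The cause was not tested except where a construction is given. By Dixon's ratio, 0 of 16 checks of the members (4 genes, 2 groups, 2 scales) passed its critical value for groups of 6 samples, and the highest ratio was 0.505, for WT replicate 6 in AT2G26100 on the normalized scale. Signal over background was not used here.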
